A study of Mus musculus with 6 samples.

Results

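The enzymes and transporters of glycolysis, the genes that sense oxygen, and the other common targets of the hypoxia-inducible factor (HIF) were followed in cultured mouse aortic smooth muscle cells with and without the LIM-domain protein FHL2. The 39 genes were taken by name: 5 oxygen-sensing genes, 21 genes of glycolysis, glucose uptake and lactate export, and 13 HIF targets outside glycolysis. They were chosen with earlier results of these data known. Of the 39 genes, 36 had a probe on the array, and 30 had at least 1 probe detected (detection p under 0.05) on at least 3 of 6 arrays, out of 9051 genes that met this limit in the whole series. The cells came from FHL2-knockout mice (KO) and wild-type mice (WT), both of the C57Bl/6 strain. For each genotype 3 batches of cells were cultured, each pooled from 3 aortas and so from 9 mice in all, and each batch gave 1 array. All cultures were confluent and had been without serum for 48 h, and the labels name no change of oxygen or glucose. They give neither sex nor age, nor the construction of the knockout allele.

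Cells sense oxygen through prolyl hydroxylases (the Egln genes), which mark the HIF alpha subunits for breakdown by the VHL ubiquitin ligase when oxygen is present. When the alpha subunit is stable it pairs with ARNT, binds a short core motif in DNA and raises transcription of glucose transporters, nearly every glycolytic enzyme, and genes of angiogenesis, pH control and collagen hydroxylation. Control of HIF1A lies largely at the protein, which arrays of RNA do not measure.

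The core motif of HIF binding is ACGTG or GCGTG, and the RefSeq promoters of members that were higher in KO cells show how it lies in them. The 4 windows printed here are those of called glycolysis or HIF target genes with the most matches, P4ha1 being the one with the smallest p among 4 such genes tied at 3 matches (with Gapdh, Pgam1 and Higd1a). Each window runs from 250 bases before to 50 after the gene's start, 5′ to 3′ on the gene's strand, in build GRCm38.p6, with capitals at every match to ACGTG or GCGTG on either strand (CACGT or CACGC on the printed strand).
Ldha, chr7:46845554-46845853 (+ strand): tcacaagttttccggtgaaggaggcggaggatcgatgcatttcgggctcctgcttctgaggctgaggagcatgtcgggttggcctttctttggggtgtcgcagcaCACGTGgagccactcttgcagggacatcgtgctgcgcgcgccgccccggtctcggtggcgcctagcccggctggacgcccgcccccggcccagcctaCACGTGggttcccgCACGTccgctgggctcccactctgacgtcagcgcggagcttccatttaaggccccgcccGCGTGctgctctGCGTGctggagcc
Ankrd37, chr8:45999801-46000100 (- strand): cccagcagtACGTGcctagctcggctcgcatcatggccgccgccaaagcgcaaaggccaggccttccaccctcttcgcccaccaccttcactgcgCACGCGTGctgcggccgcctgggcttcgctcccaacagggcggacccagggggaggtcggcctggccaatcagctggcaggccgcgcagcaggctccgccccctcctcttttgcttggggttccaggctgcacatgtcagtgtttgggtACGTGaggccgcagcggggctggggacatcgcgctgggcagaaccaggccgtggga
P4ha2, chr11:54100674-54100973 (+ strand): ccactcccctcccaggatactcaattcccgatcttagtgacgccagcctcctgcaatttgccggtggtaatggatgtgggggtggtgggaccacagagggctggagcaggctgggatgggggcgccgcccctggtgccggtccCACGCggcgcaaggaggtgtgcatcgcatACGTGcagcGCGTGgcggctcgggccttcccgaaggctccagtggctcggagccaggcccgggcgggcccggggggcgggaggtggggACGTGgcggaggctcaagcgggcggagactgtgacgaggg
P4ha1, chr10:59323046-59323345 (+ strand): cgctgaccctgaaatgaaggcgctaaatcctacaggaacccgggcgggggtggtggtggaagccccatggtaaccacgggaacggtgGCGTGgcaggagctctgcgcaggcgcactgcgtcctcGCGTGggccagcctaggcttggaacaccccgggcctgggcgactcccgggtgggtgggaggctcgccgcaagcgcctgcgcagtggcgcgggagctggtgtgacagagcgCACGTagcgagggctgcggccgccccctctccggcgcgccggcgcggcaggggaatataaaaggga
Ldha, the lactate dehydrogenase subunit that turns pyruvate into lactate, had 7 matches, counting both strands where a palindrome CACGTG matches on each. Ankrd37, an ankyrin repeat protein, and P4ha2, an alpha subunit of collagen prolyl 4-hydroxylase, had 4 matches each, and P4ha1, an alternative alpha subunit of that enzyme, had 3. A match is a string of letters and does not show that a factor binds there.

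Of the 30 measured members, 19 were higher and 2 were lower in KO cells at an adjusted p under 0.05 (limma, Benjamini-Hochberg over all 15527 probes kept), and 9 did not pass. Over all 9051 genes, 14.8% were called higher and 16.5% lower, 31.3% in all. Because a gene that is high in 1 genotype can meet the detection limit through that genotype alone, the count was also taken over the 24 members detected on all 6 arrays. Of these, 15 were higher and 2 lower, against 15.2% and 16.0% of all genes so detected. The 3 KO arrays lay above the 3 WT arrays without overlap for 19 members and below them for 2, against 23.1% and 24.7% of all genes. At least 2-fold differences were called higher for 9 members and lower for 1, against 4.70% and 5.88% of all genes. The median log2 change (KO minus WT) was 0.67 over the 5 oxygen-sensing genes, 0.69 over 14 measured glycolysis genes and 0.81 over 11 measured HIF targets outside glycolysis, and -0.01 over all genes. These counts depended on quantile normalization: with median centring 9 members were higher and 1 lower, and with no scaling between arrays 5 were higher and none lower, while every called member kept its direction.

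**Figure D1:**
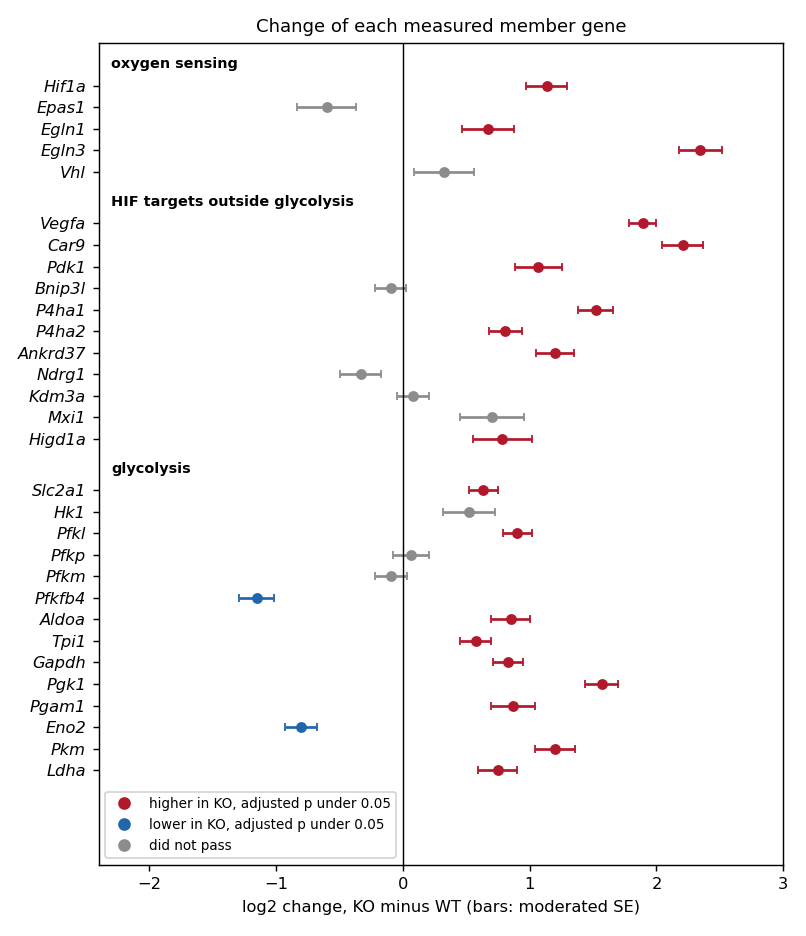
Log2 change (KO minus WT) of each of the 30 measured members, with bars for the moderated standard error (n = 3 arrays per genotype). Red points passed as higher (19 genes), blue points as lower (Pfkfb4 and Eno2), and 9 grey points did not pass.

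Median raw intensity was 140 to 167 on KO arrays and 116 to 172 on WT arrays, with 14844 to 16115 probes of 45281 detected on an array. Fhl2 itself, at 6.70, 6.65 and 7.04 in KO and 11.23, 11.37 and 11.51 in WT on the log2 scale, was 23.8-fold lower in KO cells (adjusted p 9.66e-07). This probe was still detected on all 3 KO arrays. A second kept Fhl2 probe was detected on no KO array and was at least 8.12-fold lower (adjusted p 1.87e-06). Some markers of cell type and sex moved with genotype. Of 12 endothelial markers 8 were measured and 7 were lower, with summed linear levels (normalized intensity) of 349 to 369 in KO and 2454 to 2841 in WT. All 7 were detected on no KO array and so met the detection limit through WT arrays alone. Robo4 of that list was detected on no array. The epithelial and mesothelial list had 5 measured genes, each called higher, and summed to 3322 to 3462 in KO and 301 to 318 in WT. Of the 5, Upk1b, Msln and Ppl were detected on no WT array and met the limit through KO arrays alone. Only 1 of the 5 was detected on all 6 arrays. Krt8, Krt18 and Krt19 did not meet the limit, and Epcam and Lrrn4 were detected on no array. Of 10 adventitial fibroblast markers 9 were measured, of which 3 were higher and 5 lower (15184 to 17559 in KO, 13450 to 13746 in WT). Of 8 smooth muscle markers 6 were measured, of which 2 were higher (Acta2 and Lmod1) and 4 did not pass, and Cnn1 was detected on no array (summed levels 34761 to 38659 in KO, 22212 to 28490 in WT). Xist, expressed from the inactive X of female cells, was detected on no KO array and on all 3 WT arrays, and the Y-linked Eif2s3y was 2.64-fold higher in KO. Their part in the results was not tested.

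The genes of oxygen sensing were led by Egln3, the prolyl hydroxylase most strongly induced by hypoxia in many cell types. Egln3 stood at 7.52, 7.60 and 7.90 in KO and 5.25, 5.62 and 5.12 in WT on the normalized log2 scale. All 3 KO arrays lay far above all 3 WT arrays, of which 2 detected the probe. The change was 2.35 ± 0.17 (SE), or 5.09-fold higher, with a limma adjusted p of 3.74e-05. Hif1a, which encodes the main HIF alpha subunit, read 8.21, 8.03 and 8.36 in KO and 7.19, 7.23 and 6.78 in WT. The groups did not overlap, and Hif1a RNA was 2.20-fold higher in KO (log2 change 1.14 ± 0.16, adjusted p 0.00133). Epas1 encodes HIF2A, the alpha subunit typical of endothelium. Its values were 4.82, 4.52 and 5.42 in KO and 5.46, 5.35 and 5.75 in WT. They overlapped, since KO replicate 3 lay within the WT range, and the change of -0.60 ± 0.23 did not pass (adjusted p 0.0880). Epas1 was detected on 1 of 3 KO arrays and on all 3 WT arrays. Of the 8 measured endothelial markers, 7 were lower as given above, while Kdr changed by 0.30 and did not pass (adjusted p 0.303). A link between Epas1 and these markers was not tested. In bulk RNA, fewer cells of a type and less RNA per cell cannot be told apart.

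Egln1, the hydroxylase that sets HIF levels in most tissues, had 5.89, 5.87 and 6.16 in KO and 5.59, 4.84 and 5.47 in WT. The groups did not overlap, and it was 1.59-fold higher (adjusted p 0.0424). A second kept Egln1 probe changed by 0.37 ± 0.25 and did not pass (adjusted p 0.305), and the call on the first was lost on leaving out any 1 of 5 of the 6 arrays. Vhl, the substrate receptor of the ubiquitin ligase, read 6.01, 6.92 and 6.73 in KO and 6.32, 6.36 and 6.00 in WT. Its groups overlapped, with KO replicate 1 among the WT values (log2 change 0.33 ± 0.24, adjusted p 0.349).

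Of 10 measured genes among 12 listed (hydroxylases, ARNT partners, ligase subunits and coactivators), 1 was higher and 2 were lower, with a median log2 change of -0.23. That is 3 of 10 called, close to the 31.3% called over all genes. Genes of this list are given by their brightest kept probe, and their other kept probes that differed in call are named. Cited2, a HIF target whose protein competes with HIF for the coactivators p300 and CBP, gave 8.88, 8.89 and 8.88 in KO and 10.33, 10.44 and 10.34 in WT. The KO arrays were tightly grouped well below the WT arrays, and Cited2 was 2.80-fold lower (log2 change -1.49 ± 0.11, adjusted p 4.26e-05). Of its 2 dimmer kept probes, 1 was also lower and 1 did not pass (-0.81, adjusted p 0.0851). Arnt, the partner of both alpha subunits, was 1.49-fold lower on its brighter probe (adjusted p 0.0168), while a second kept probe changed by 0.52 and did not pass (adjusted p 0.128). Cul2, the scaffold of the VHL ligase, was 1.40-fold higher (adjusted p 0.0380); of its 2 dimmer kept probes, 1 was also higher and 1 did not pass (0.62, adjusted p 0.157). Elob, the elongin B adaptor of that ligase, did not pass on its brightest probe (0.30 ± 0.12, adjusted p 0.0995), while its other kept probe was higher (0.43, adjusted p 0.0324).

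Along the glycolytic steps, 9 of 14 measured genes were higher and 2 were lower, against 14.8% and 16.5% of all genes. The 3 genes that did not pass lay at the early steps. With median centring, Pgk1 and Pkm alone among the 9 kept their call, and with no scaling Pgk1 alone. Slc2a1 encodes GLUT1, the glucose transporter of most cells. It stood at 10.91, 11.01 and 10.96 in KO and 10.26, 10.38 and 10.33 in WT. Every KO array was above every WT array, and Slc2a1 was 1.55-fold higher (adjusted p 0.00391). Hexokinase traps glucose as its phosphate, and Hk1, its widely expressed form, had 5.44, 5.56 and 5.60 in KO and 4.85, 4.70 and 5.49 in WT. KO replicate 1 lay below WT replicate 3, so the groups overlapped, and the change of 0.52 ± 0.21 did not pass (adjusted p 0.0941). Hk1 was detected on all 3 KO arrays and on 1 WT array.

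Phosphofructokinase, the committed step, has 3 genes, named for liver, muscle and platelet, of which 1 passed. The liver-type Pfkl read 10.95, 10.96 and 10.93 in KO and 10.07, 10.13 and 9.93 in WT. The groups were far apart against a KO spread of 0.02, and Pfkl was 1.87-fold higher (log2 change 0.90 ± 0.12, adjusted p 7.78e-04). The muscle-type Pfkm gave 9.81, 9.67 and 9.67 in KO and 9.93, 9.69 and 9.80 in WT, and its groups overlapped (-0.09 ± 0.12, adjusted p 0.621). Neither of its other kept probes passed. The platelet-type Pfkp likewise overlapped, at 6.96, 7.26 and 6.97 in KO and 6.81, 7.08 and 7.10 in WT (0.06 ± 0.14, adjusted p 0.783), and its direction turned on leaving out KO replicate 2 or WT replicate 1 (-0.03 in each case). The 3 differences themselves were not tested against each other.

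Pfkfb4 went against most glycolysis genes. It encodes one of the bifunctional enzymes that make and break fructose-2,6-bisphosphate, the strongest activator of phosphofructokinase, and it is itself known as a hypoxia-induced gene. Pfkfb4 had 7.01, 6.63 and 6.88 in KO and 7.93, 8.09 and 7.96 in WT. All KO arrays lay below all WT arrays, with a log2 change of -1.15 ± 0.14 (2.22-fold lower, adjusted p 5.03e-04). Its relative Pfkfb2, the form typical of heart, was also lower (1.43-fold lower, adjusted p 0.0346), and Pfkfb3 was detected on no array.

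From aldolase to lactate dehydrogenase, 7 of 8 measured genes were higher in KO cells, against 14.8% of all genes, with Eno2 the exception. Aldoa, the aldolase that splits the hexose, was at 11.43, 11.52 and 11.36 in KO and 10.29, 10.82 and 10.65 in WT (1.80-fold higher, adjusted p 0.00460). Tpi1, which interconverts the 2 triose phosphates, was at 12.17, 12.35 and 12.44 in KO and 11.72, 11.81 and 11.70 in WT (1.49-fold higher, adjusted p 0.010). The groups were separate for both genes, and all 3 kept Tpi1 probes were higher. Gapdh, which makes the first high-energy intermediate, was at 11.64, 11.48 and 11.59 in KO and 10.66, 10.80 and 10.77 in WT. Its arrays varied little within a genotype, and it was 1.78-fold higher (log2 change 0.83 ± 0.12, adjusted p 0.00129).

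Pgk1, the X-linked phosphoglycerate kinase that yields the first ATP of the pathway, showed the largest change among the glycolysis members. It stood at 11.31, 11.17 and 11.19 in KO and 9.63, 9.82 and 9.51 in WT. The lowest KO array was above the highest WT array by more than the spread within either group, and Pgk1 was 2.97-fold higher (log2 change 1.57 ± 0.13, adjusted p 7.19e-05). The X-linked Xist differed between the genotypes as given above, and a part of sex in the change of Pgk1 was not tested. Pgam1, the next mutase, had 8.72, 9.08 and 8.50 in KO and 7.76, 7.86 and 8.08 in WT and was 1.82-fold higher (adjusted p 0.00696). A dimmer kept Pgam1 probe was detected on all 3 KO arrays and no WT array and was at least 1.55-fold higher (adjusted p 0.00460).

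Eno2, the enolase typical of neurons, gave 7.34, 7.33 and 7.62 in KO and 8.27, 8.19 and 8.23 in WT. All KO arrays were below the WT arrays, and it was 1.74-fold lower (log2 change -0.80 ± 0.13, adjusted p 0.00232). No probe carried the symbol Eno1, the common enolase, in the annotation used here. A probe annotated to Eno1b, a close copy of Eno1 that was added after the values were seen, read 6.66, 6.46 and 6.28 in KO and 5.42, 4.996 and 5.24 in WT. It was 2.37-fold higher and was detected on 2 of 3 WT arrays (adjusted p 7.40e-04).

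Pkm, the pyruvate kinase of most tissues, had 11.51, 11.47 and 11.47 in KO and 9.95, 10.42 and 10.46 in WT. The KO arrays agreed closely while WT replicate 1 was the lowest of all, and Pkm was 2.30-fold higher (log2 change 1.20 ± 0.16, adjusted p 8.63e-04). The probe is not resolved here into the PKM1 and PKM2 splice forms. Ldha stood at 11.80, 11.65 and 11.84 in KO and 10.72, 11.10 and 11.22 in WT. The groups did not overlap, and Ldha, whose promoter held the most core motifs among the members, was 1.68-fold higher (log2 change 0.75 ± 0.16, adjusted p 0.00818). Gapdh, Aldoa, Tpi1, Pgk1, Pgam1 and Ldha have near-identical processed copies in the mouse genome, and signal from a copy cannot be told apart from that of the gene with these files.

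**Figure D2:**
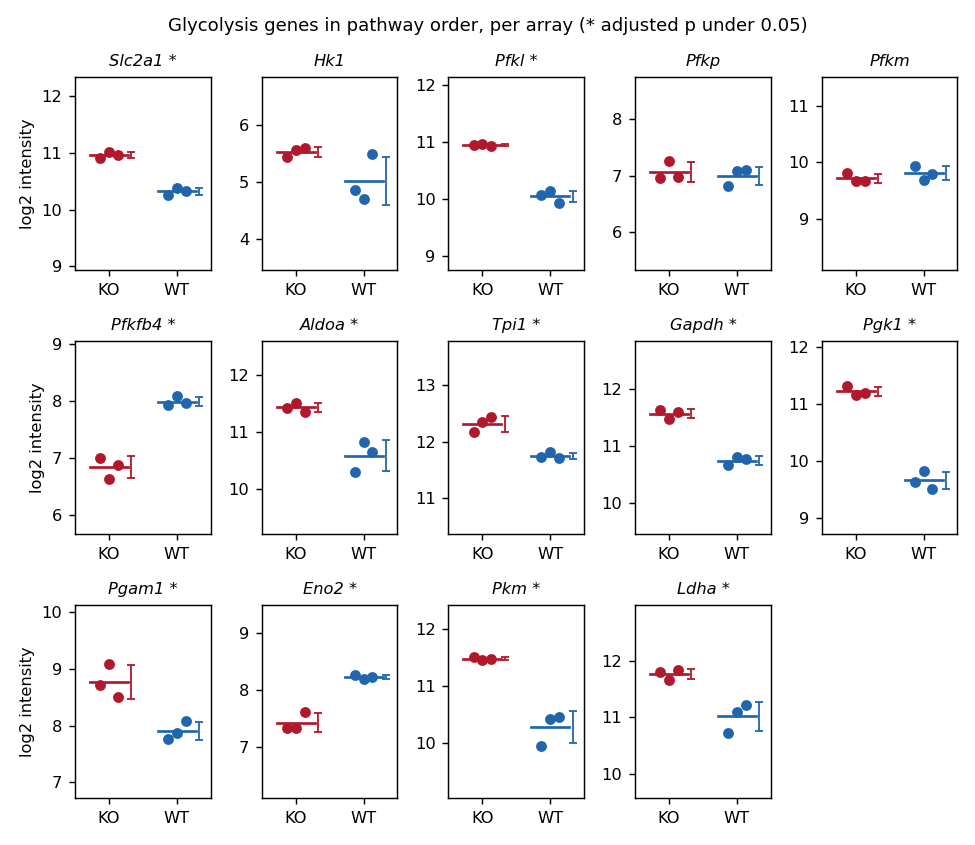
Normalized log2 intensity on each array for the 14 measured glycolysis members in pathway order, KO left and WT right, with points for arrays, a line for the mean of 3, a bracket for its SD and an asterisk where the adjusted p was under 0.05. Every panel spans the same log2 range, so that Pgk1 shows the widest gap and Pfkp and Pfkm show overlapping groups.

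Members without a measurement were Hk2, Gpi1 and Eno1, which had no probe under that symbol, and 6 genes whose probes did not meet the detection limit. Of these, Pfkfb3, the mitophagy receptor Bnip3 and the oxidoreductase Ero1l were detected on no array. Aldoc (brain-type aldolase) and the lactate exporter Slc16a3 were detected on at most 1 array per probe, a WT array in each case, and Ldhb (the heart-type dehydrogenase subunit) on 1 KO and 1 WT array. Just inside the limit lay Epas1, Hk1, Car9 and Higd1a, each detected on 4 of 6 arrays. The measured glycolysis genes were mostly bright: with all genes cut by brightness into 4 equal groups, 9 of 14 were in the brightest group, where 15.7% of genes were called higher, against 10.3% in the dimmest group.

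Among HIF targets outside glycolysis, 7 of 11 measured genes were higher and none was lower, against 14.8% and 16.5% of all genes. Over the 9 detected on all arrays, 5 were higher, against 15.2% of all genes so detected. With median centring, P4ha2 and Higd1a lost their call, and with no scaling between arrays 3 of the 7, Vegfa, Car9 and P4ha1, kept theirs. Vegfa, the angiogenic growth factor and classic HIF target, had the smallest spread of all members. It stood at 10.86, 10.86 and 10.86 in KO and 8.98, 8.96 and 8.96 in WT. The arrays of each genotype were nearly equal, and Vegfa was 3.71-fold higher (log2 change 1.89 ± 0.11, adjusted p 1.15e-05). A second probe gave 1.84 (adjusted p 2.34e-05). Car9, the carbonic anhydrase that exports acid equivalents in hypoxic cells, had 7.33, 7.25 and 7.19 in KO and 4.90, 4.88 and 5.37 in WT. It was detected on all 3 KO arrays but on 1 WT array, so that its WT mean is close to background. The change was 2.21 ± 0.16 on the log2 scale (adjusted p 3.45e-05).

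P4ha1 and P4ha2, alternative alpha subunits of collagen prolyl 4-hydroxylase, were higher. The enzyme stabilises the collagen triple helix and uses oxygen as a substrate. P4ha1 gave 9.44, 9.70 and 9.82 in KO and 8.23, 8.07 and 8.10 in WT. The groups were well separated, and P4ha1 was 2.87-fold higher (log2 change 1.52 ± 0.14, adjusted p 1.18e-04). P4ha2 gave 10.54, 10.29 and 10.31 in KO and 9.66, 9.59 and 9.46 in WT and was 1.75-fold higher (adjusted p 0.00223). A second kept probe of each gene was also higher, by 1.38 for P4ha1 and 1.12 for P4ha2 on the log2 scale. Ankrd37 read 6.83, 6.52 and 6.82 in KO and 5.60, 5.64 and 5.33 in WT. It did not overlap between genotypes and was 2.30-fold higher (adjusted p 5.91e-04).

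Pdk1, the kinase that shuts pyruvate out of the citric acid cycle, had 7.70, 7.73 and 8.05 in KO and 6.40, 7.02 and 6.84 in WT. The groups were separate, and it was 2.10-fold higher (log2 change 1.07 ± 0.19, adjusted p 0.00348). Higd1a, a mitochondrial inner membrane protein, read 6.07, 6.08 and 6.29 in KO and 5.93, 5.11 and 5.05 in WT. Its change of 0.79 ± 0.23 passed narrowly (adjusted p 0.0356), with detection on 1 WT array, and the call was lost on leaving out any 1 array other than WT replicate 1. Mxi1, a MAX-binding antagonist of MYC, changed by 0.70 ± 0.25 and did not pass (adjusted p 0.0722).

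The other HIF targets among the members did not pass. Bnip3l, a mitophagy receptor, gave 11.22, 11.19 and 11.21 in KO and 11.45, 11.30 and 11.17 in WT (log2 change -0.10 ± 0.12, adjusted p 0.602). The histone demethylase Kdm3a changed by 0.08 ± 0.13 (adjusted p 0.684), and neither of its other kept probes passed. Ndrg1, a stress-responsive gene induced by hypoxia in many cell lines, gave 9.71, 9.63 and 9.99 in KO and 10.10, 10.35 and 9.88 in WT. These groups overlapped and the change of -0.33 ± 0.16 did not pass (adjusted p 0.167), while its dimmer probe, called lower, had a log2 change of -0.60 ± 0.14, or 1.51-fold lower (adjusted p 0.0159).

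**Figure D3:**
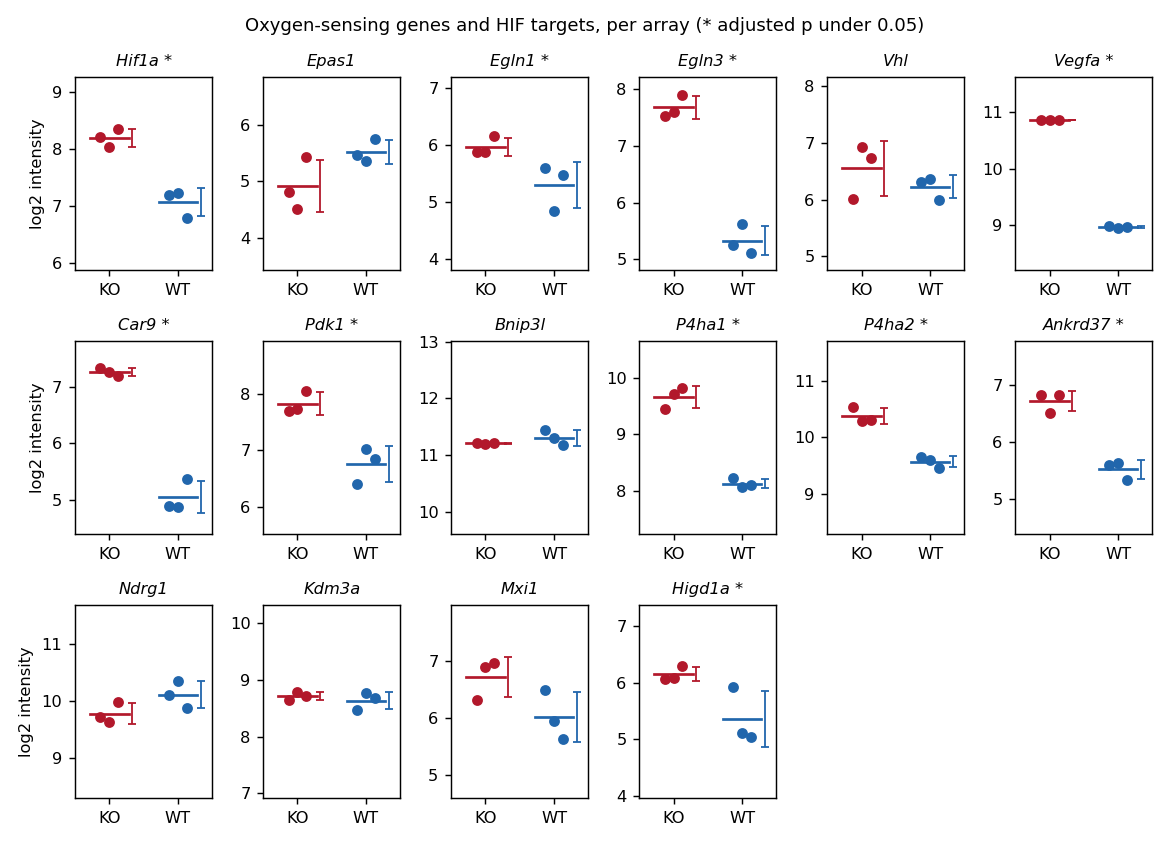
Normalized log2 intensity on each array for the 5 oxygen-sensing genes and the 11 measured HIF targets outside glycolysis, KO left and WT right, with points for arrays, a line for the mean of 3, a bracket for its SD and an asterisk where the adjusted p was under 0.05. Egln3, Car9 and Vegfa show the widest gaps, and Epas1 and Ndrg1 show lower KO means with overlapping groups.

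A wider list of 33 HIF targets was mixed in direction. Of its 24 measured genes, 9 were higher, 4 were lower and 11 did not pass, with a median log2 change of 0.30. All genes were called higher in 14.8% and lower in 16.5%. Stc2, a secreted glycoprotein of phosphate and calcium balance, stood at 8.50, 8.68 and 8.65 in KO and 5.86, 5.50 and 5.32 in WT. It was 8.29-fold higher (adjusted p 6.74e-06), with all KO arrays above all WT arrays. Ddit4 (REDD1), which restrains mTOR under low oxygen, was 3.95-fold higher (adjusted p 9.57e-05). Adm, the vasodilator adrenomedullin that is abundant in endothelium, ran the other way at 5.90, 6.31 and 6.18 in KO and 8.21, 8.46 and 8.16 in WT. Its groups were far apart, and Adm was 4.44-fold lower (adjusted p 3.21e-05). Ppp1r3c, which targets protein phosphatase to glycogen, had 9.62, 9.62 and 9.63 in KO and 12.71, 12.58 and 12.37 in WT. The KO arrays were almost equal and lay below every WT array, and Ppp1r3c was 7.63-fold lower (adjusted p 3.31e-06). The other lower genes were named after their values were seen. They were the vasoconstrictor Edn1 (2.47-fold lower, adjusted p 0.00124), also made by endothelium, and the collagen lysyl hydroxylase Plod2 (1.43-fold lower, adjusted p 0.0321). Adm and Edn1 were each detected on all 3 arrays of both genotypes, and a part of endothelial cells in their changes was not tested. The other higher genes, likewise named afterwards, were Bhlhe40 (2.51-fold), Fam162a (1.60-fold), Angptl4 (1.48-fold), Tfrc (1.40-fold), Ier3 (1.36-fold), Wsb1 (1.34-fold) and Ak4. Ak4 was detected on no WT array and was at least 1.51-fold higher. A second kept Tfrc probe did not pass (0.62, adjusted p 0.0502). Mif, also named afterwards, did not pass on its brightest probe (0.41, adjusted p 0.0598), while its other kept probe was higher (0.54, adjusted p 0.0104).

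Genes beside and beyond glycolysis were called in both directions. Their counts are to be read against the 31.3% called over all genes, 14.8% higher and 16.5% lower. Of 22 further genes of sugar transport and tissue-restricted glycolysis, 6 were measured, and Pfkfb2 alone passed. Adpgk, an ADP-dependent glucokinase, and Eno3, the muscle enolase, changed by 0.37 and 0.59 without passing (adjusted p 0.0707 and 0.0800), as did the transporter Slc2a10 (0.18, adjusted p 0.571). At the entry of pyruvate into mitochondria, 1 of 8 measured genes was higher and 1 lower. Pdk4, a pyruvate dehydrogenase kinase induced by fasting and fatty acids, stood at 7.67, 7.67 and 7.73 in KO and 10.15, 10.08 and 10.18 in WT. It was 5.46-fold lower (adjusted p 4.07e-06) with no overlap, in the direction opposite to its relative Pdk1. Dld, a subunit shared by the pyruvate and oxoglutarate dehydrogenases, was 1.91-fold higher (adjusted p 0.0112), and Pdhb and Pdp1 did not pass on their brightest probes, although 1 of 2 dimmer kept Pdhb probes was higher (0.48, adjusted p 0.0490).

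In the pentose phosphate pathway 1 of 6 measured genes was higher and 2 were lower, against 14.8% and 16.5% of all genes. Taldo1, the transaldolase, was 1.60-fold higher (adjusted p 0.00336) and H6pd, the dehydrogenase of the endoplasmic reticulum, 1.37-fold lower (adjusted p 0.0193). Rpe, the ribulose-phosphate epimerase, was detected on no KO array and was at least 4.35-fold lower in KO cells (adjusted p 8.77e-06). The transketolase Tkt did not pass (0.53, adjusted p 0.0552). Of 5 measured glycogen genes 2 were higher and 2 lower. Pygb, the brain-type phosphorylase, was 2.06-fold higher (adjusted p 8.77e-04) and Pygl, the liver type, 2.04-fold lower (adjusted p 0.00396). Pgm1, which feeds glucose phosphate to glycogen, was 1.43-fold higher (adjusted p 0.0279), and Ugp2, which makes the UDP-glucose donor, was 2.38-fold lower (adjusted p 2.87e-04).

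The citric acid cycle had 3 of 14 measured genes higher and none lower, against 14.8% and 16.5% of all genes. Its median log2 change was 0.28. The 3 were citrate synthase Cs (1.89-fold higher, adjusted p 0.00117), the succinyl-CoA ligase subunit Suclg2 (1.44-fold higher, adjusted p 0.0304) and the oxoglutarate dehydrogenase Ogdh (1.48-fold higher, adjusted p 0.0494). The malate dehydrogenase Mdh2 changed by 0.34 and did not pass (adjusted p 0.0923). Of 4 measured factors that respond to glucose, 1 was lower. Txnip, an arrestin-like inhibitor of glucose uptake whose transcription follows intracellular glucose phosphate, stood at 11.93, 12.05 and 12.09 in KO and 13.52, 13.38 and 13.40 in WT. The groups were separate, and Txnip was 2.66-fold lower (log2 change -1.41 ± 0.12, adjusted p 7.42e-05). The glucose-sensing factors Mlxipl and Mlxip did not pass (adjusted p 0.128 and 0.163), nor did the Txnip relative Arrdc4 (adjusted p 0.663).

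**Figure D4:**
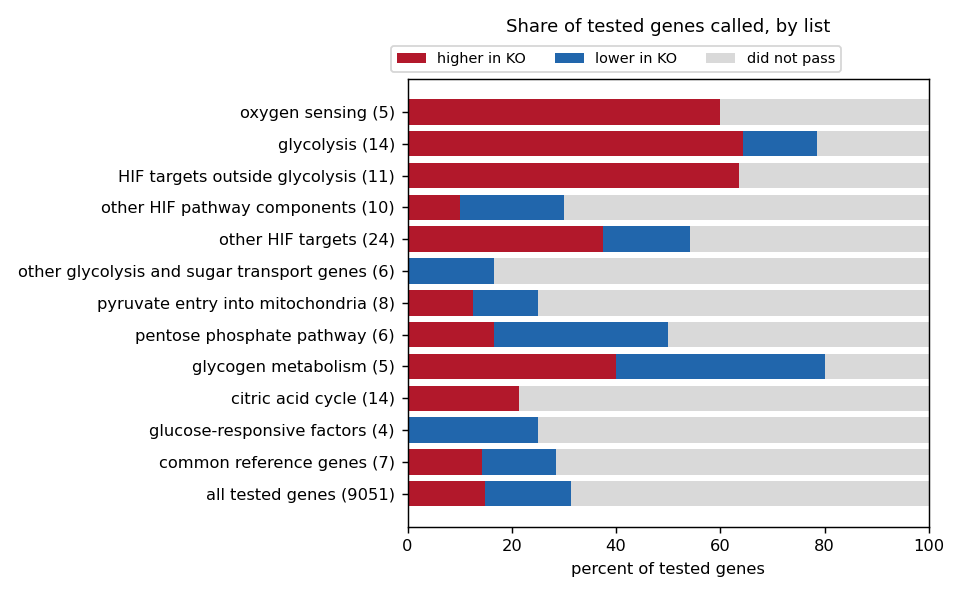
Percent of measured genes that were higher in KO (red), lower in KO (blue) or did not pass (grey), for the 3 member lists, the 9 related lists and all 9051 genes. The glycolysis list (9 higher, 2 lower of 14) and the HIF targets outside glycolysis (7 higher of 11) have the longest red bars beside oxygen sensing (3 of 5), and all genes are called higher in 14.8% and lower in 16.5%.

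At least 1 ACGTG or GCGTG on either strand lay in the 300-base window of 32 of the 36 members with a window (88.9%), taking the window with the most matches where a gene had several. The share was 46.7% of all 27025 genes with a window, and 4.43% of these had 4 or more matches, against 7 of 36 members (19.4%). All genes with a window include many that were not measured on the arrays. The share with 4 or more matches was not taken over tested genes. Of members with a window, 18 of 19 that were higher had a match, as did 5 of 6 that did not pass. Of the members that were lower, Pfkfb4 had 1 match and Eno2 had none, and Tpi1 was the higher member with none. Hk1 had 5 matches and Pfkp 4, although neither passed, while Car9 and Egln3, both strongly higher, had 1 each. Over all tested genes a match was present for 70.4% of those higher, 64.2% of those lower and 68.8% of those that did not pass. No test was made of these shares, and they depend on base composition.

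**Figure D5:**
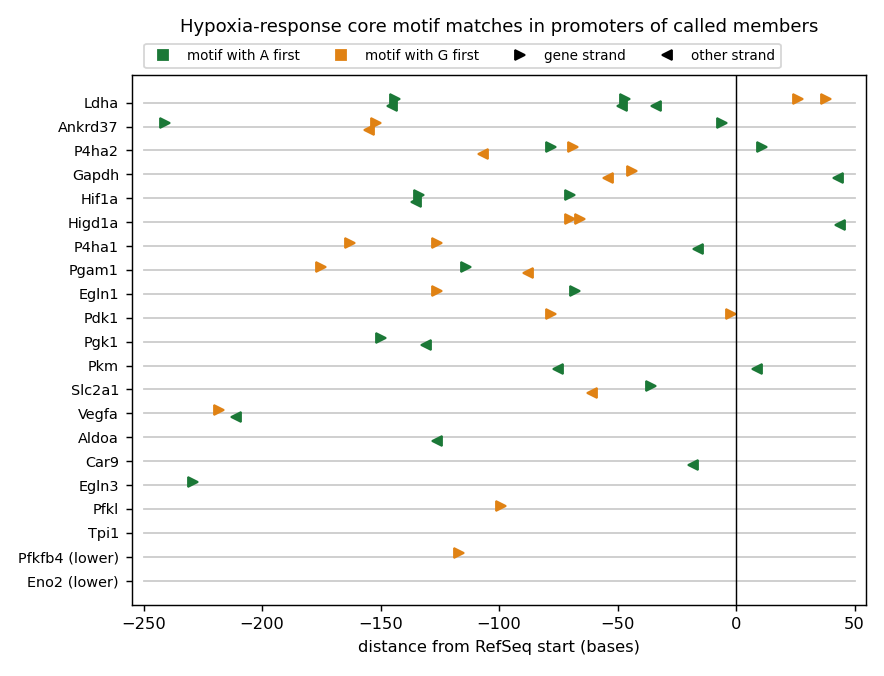
Positions of ACGTG and GCGTG in the RefSeq promoter windows of members that were higher or lower in KO, by distance from the gene's start in bases, with colour for the first letter of the motif and triangles pointing along or against the gene's strand. Ldha has the most matches (7), and Pfkfb4, marked as lower, has 1.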

How the data were processed

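RNA was measured on 1-colour Illumina beadchips with biotin-labelled cRNA, 1 array per culture batch and 3 per genotype, grouped by the genotype in the labels. The authors deposited raw bead intensity values and, per the file headers, a detection p-value for each probe and array. They also deposited a matrix on a log2 scale whose offset is unknown (column medians 4.94 to 4.95), which served as an alternative. GenomeStudio 2011.1, R 2.14.0 and limma 3.10.2 are listed in the submitters' processing notes, with no role given.

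In R 4.3.3 with limma 3.58.1, neqc estimated the background from detection p-values, added an offset of 16, applied quantile normalization and took log2, which assumes like intensity distributions in both genotypes and shrinks changes of dim probes. Probes with a detection p under 0.05 on at least 3 of 6 arrays were kept (15527 of 45281). Differences, KO minus WT, were tested with lmFit and eBayes and adjusted by Benjamini-Hochberg over all 15527 probes; an adjusted p under 0.05 is called. Errors of changes are moderated standard errors. A gene is represented by its brightest kept probe. A probe detected on no array of one genotype has a bound for its fold, written "at least", set against the lowest detected signal. Platform symbols were updated by gene identifier through RefSeq GRCm38.p6, which matched 34807 probes and left 10378 without a symbol. Promoter windows came from RefSeq; none was used for Bnip3l, Epas1 or Ndrg1. Ero1l is annotated as Ero1a.

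The members and all lists were chosen with earlier results of these data known. All members are named, with up to 4 genes of each other list by smallest p and every measured common reference gene. Edn1, Plod2, Mif, Kdr, Eno1b and the remaining higher genes of the wider HIF target list were added after their values were seen. Batches are separate cultures. Samples with the same replicate number were compared by their deviations from the group means (r = 0.118, 0.0727 and 0.0641). Pairs with unlike numbers all had a lower r, from -0.0741 to 0.00863. The main fit did not pair the samples, and a fit with the replicate number as a block was run as an alternative. Precision is limited by 3 arrays per genotype. Tested on simulated data with 50 changed probes per size, the fit recovered 2% of log2 changes of 0.5, 88% of 1 and 100% of 2. That simulation gave 151 calls, against 4596 called probes in the data. The adjusted p depends on the share of changed probes, so these recovery rates do not carry over to the data. Slides and scan dates are not given in the sources used here.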

Additional observations from a re-analysis of the deposited data

How the results depend on the processing

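The 21 called members were followed through 20 alternative settings, at most 19 of them per member. All 21 kept their direction, and Egln3, Pgk1, Vegfa, Car9 and P4ha1 also kept their call under every one. The calls depended most on quantile normalization. With median centring, 9 members were higher and 1 lower, 2 glycolysis genes were higher, and 685 probes were higher and 1082 lower. With no scaling between arrays, the counts were 5 and 0 members, 1 glycolysis gene, 3 HIF targets outside glycolysis, and 332 and 495 probes. Tested against a 1.5-fold change, 7 members were higher and 1 lower, with 2 glycolysis genes, 4 HIF targets, and 499 and 611 probes. The median change of glycolysis genes was 0.60 with no background correction and 0.55 with no filter on dim probes, and that of HIF targets was 0.42 with no background correction. Leaving out 1 array gave 17 to 20 members higher and 2 to 3 lower, 9 to 10 glycolysis genes, 6 to 8 HIF targets, 1636 to 2147 probes higher and 1803 to 2160 lower, and medians of 0.60 to 0.80 for glycolysis and 0.75 to 0.94 for HIF targets. Pfkp, not called, reversed to -0.046 with median centring and -0.026 with no scaling, and ranged from -0.033 to 0.12 on leaving out 1 array, with Kdm3a from -0.0046 to 0.14.

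Both scalings were also run without the dimmest array, WT replicate 2, a choice made after seeing the data. The median change of all genes then moved to -0.34 with median centring and -0.46 with no scaling, and member changes are to be read against it. Members higher were 12 and 9, members lower 5 and 5, glycolysis genes higher 5 and 2, probes higher 862 and 694, and probes lower 4407 and 5825. Medians were 0.39 and 0.28 for glycolysis and 0.46 and 0.34 for HIF targets. Pfkp was at -0.28 and -0.40, Kdm3a at -0.25 and -0.37, and Vhl at -0.053 with no scaling. The cause of these shifts was not tested.

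Replicate numbers as a block gave 4405 called probes, against 4596 without it, 4140 of them shared. In deviations from the group means, every sample correlated best with the sample of its own number in the other genotype. Of members that were not called, Mxi1 passed in 7 alternatives, Ndrg1 in 3, Epas1 under the replicate block and without KO replicate 3, Vhl without KO replicate 1 and Hk1 without WT replicate 3. Dim genes (Car9, Higd1a, Hk1, Epas1) are limited by their signal over background.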

Other observations

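Gapdh, a member here, is widely used to normalise expression between samples. Of 10 genes in common use for that purpose, 7 were measured, of which 1 was higher, 1 was lower and 5 did not pass. Over all genes, 14.8% were called higher and 16.5% lower. The median log2 change (KO minus WT) of the 7 was 0.08. The signalling adaptor Ywhaz was 1.66-fold higher in KO cells (limma adjusted p 0.00632), and B2m, the light chain of MHC class I, was 1.42-fold lower (adjusted p 0.0320). Cytoskeletal Actb changed by 0.43 ± 0.15 and did not pass (adjusted p 0.0681). Hprt (0.08 ± 0.15), Tbp (-0.03 ± 0.15), Ppia (0.03 ± 0.12) and the ribosomal Rplp0 (0.18 ± 0.15) did not pass either, with adjusted p from 0.412 to 0.908 on their brightest kept probes, while 1 of 2 dimmer kept Hprt probes was higher (0.63, adjusted p 0.0360). Gapdh itself changed by 0.83 ± 0.12 (adjusted p 0.00129).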
